A study of Mus musculus with 5 samples.

Results

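The 10 genes described are Jumonji histone demethylases, namely Kdm2b, Kdm3a, Kdm3b, Kdm4a, Kdm4b, Kdm4c, Kdm5a, Kdm5b, Kdm6a and Kdm6b. They were taken as the probe sets whose only gene symbol in the array's annotation was one of these names, and each of the 10 genes had 1 probe set among the 19938 genes measured. Kdm3a and Kdm4b, the members whose transcription is best known to be raised by hypoxia, were set against the other 8. RNA came from mouse embryonic stem (ES) cells carrying a tetO-Satb1 transgene, in which doxycycline (DOX) switches on Satb1, an AT-rich DNA-binding chromatin protein best known from T lymphocytes. The +DOX group had 3 arrays of tetO-Satb1 cells given DOX for 24 h, and the no DOX group had 2 arrays of tetO-Satb1 cells without it. Both groups were in serum medium with LIF and were harvested 48 h after passaging. No DOX-treated cells lacking the transgene were analysed here, so DOX and Satb1 cannot be told apart. Separate cultures are not stated for replicate arrays, so a p-value measures array-to-array spread, which can be technical.

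JmjC demethylases are dioxygenases that use iron, oxygen and 2-oxoglutarate to oxidise methyl groups on histone lysines, which are then released. KDM3 proteins act on methylated H3K9, KDM4 proteins on H3K9 and H3K36, KDM5 proteins on H3K4 and KDM6 proteins on H3K27. KDM2B acts on H3K36 and, through its CXXC zinc finger, brings a Polycomb complex to unmethylated CpG islands. When oxygen is low, hypoxia-inducible factor (HIF) is stabilised and raises transcription of several of these enzymes, KDM3A and KDM4B most clearly. In mouse ES cells Kdm3a and Kdm4c have been described as supporting self-renewal.

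HIF binds a short core that reads ACGTG or GCGTG, and this core was searched for on both strands of RefSeq promoter windows of build GRCm38.p6, each running from 250 bases before to 50 bases after an annotated start. Of the 10 members, 6 had a window, and 5 of these 6 held the core in at least 1 window. Kdm4b, Kdm3b, Kdm5a and Kdm6b had no window, so the search says nothing about them. Genes with several windows, such as Kdm2b and Kdm3a, had more places in which a core could fall. Over all 27025 genes with a window, 46.7% held it, and 43.8% of the 32851 windows did. The 100 bases before the start are shown for Kdm3a, Kdm4c, Kdm5b and Kdm6a, each with a core in the stretch printed, and for Kdm4a, which had none in its window. Capitals mark each core, and CACGTG, which reads alike on both strands, counts as a match on each. Kdm3a lies at chr6:71632918-71633017 (minus strand), Kdm4c at chr4:74251779-74251878 (plus strand, the inner of its starts), Kdm5b at chr1:134560078-134560177 (plus strand), Kdm6a at chrX:18162475-18162574 (plus strand) and Kdm4a at chr4:118180044-118180143 (minus strand).
Kdm3a: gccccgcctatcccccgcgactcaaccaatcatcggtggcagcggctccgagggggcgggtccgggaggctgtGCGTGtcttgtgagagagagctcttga
Kdm4c: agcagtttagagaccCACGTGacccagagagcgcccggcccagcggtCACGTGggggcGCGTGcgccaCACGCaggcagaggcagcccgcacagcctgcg
Kdm5b: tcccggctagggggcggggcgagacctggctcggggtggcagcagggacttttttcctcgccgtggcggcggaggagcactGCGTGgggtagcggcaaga
Kdm6a: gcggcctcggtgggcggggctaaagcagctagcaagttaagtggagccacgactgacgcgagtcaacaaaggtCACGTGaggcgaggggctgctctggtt
Kdm4a: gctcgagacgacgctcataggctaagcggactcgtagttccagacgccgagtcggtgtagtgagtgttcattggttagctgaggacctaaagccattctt

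In Kdm3a the single core was GCGTG, beginning at position -27 relative to the start, and its other 2 windows held none. The Kdm4c window had 4 matches to ACGTG, from 2 copies of CACGTG, and 2 matches to GCGTG, while the window of its outer start had none. Kdm2b, whose sequence is not shown, had GCGTG and no ACGTG, with a core next to its inner starts. A match describes the letters only, and no binding was measured here.

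Satb1 itself was at 8.61, 8.79 and 8.68 on the +DOX arrays, against 4.95 and 5.34 on the no DOX arrays, on the log2 scale of the deposited values. All +DOX arrays lay far above both no DOX arrays, an 11.7-fold difference. Over all 19938 genes its adjusted p was 0.229 (limma, Benjamini-Hochberg). Many probe sets held exactly equal values on several arrays, and 15.1% of genes had the same value on all 5. limma shares an SD between genes, which was 0.0050 with every gene included. Intervals below use 0.086, the SD of the 1800 genes whose 5 values all differed (called the untied spread). With it Satb1 passed the threshold of 0.05 (adjusted p = 0.0038). The arrays carried the ES cell markers Pou5f1, Sox2 and Nanog at log2 levels between 9.75 and 9.97. Zfp42 had a lower level, 6.33 with DOX and 6.34 without. Of the 9 markers listed, means with DOX were lower in 6 and higher in 2. Tdgf1, with the smallest p, was at 11.07, 11.09 and 11.01 on the +DOX arrays, against 11.23 and 11.29 on the no DOX arrays. Its log2 difference of -0.21 ± 0.035 (standard error) did not pass over all genes (adjusted p = 0.770, limma).

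Kdm3a was the member with the largest difference between the groups. It was at 7.49, 7.49 and 7.46 on the +DOX arrays, against 7.68 and 7.79 on the no DOX arrays. Every +DOX array lay below both no DOX arrays, with a gap of 0.19 between the groups, larger than the 0.11 that separated the no DOX arrays from each other. The mean level was 7.48 ± 0.02 (SD, n = 3) with DOX and 7.73 ± 0.08 (SD, n = 2) without, a log2 difference of -0.26 with a standard error of 0.040, or 0.838 times the no DOX level. Of all genes, 151 (0.757%) had a more negative difference. Kdm3a did not pass the test over all genes (adjusted p = 0.770, limma). With the untied spread the 95% interval of its difference ran from -0.41 to -0.10, and the adjusted p was 1. RNA was taken from whole cultures, in which fewer cells of a type and less RNA per cell cannot be told apart.

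Kdm4b, the other hypoxia-inducible member and an H3K9 and H3K36 demethylase, differed less. It was at 6.06, 6.04 and 6.10 on the +DOX arrays, against 6.20 and 6.10 on the no DOX arrays. The third +DOX array had the same value as the second no DOX array, so the groups touched. The log2 difference was -0.084 ± 0.040 (standard error), with an interval from -0.24 to 0.071 by the untied spread. It did not pass over all genes (adjusted p = 0.770, limma). The 2 no DOX arrays were 0.098 apart, which is more than the difference between the groups. Without the first no DOX array the difference was -0.035, and without the second it was -0.13.

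**Figure D1:**
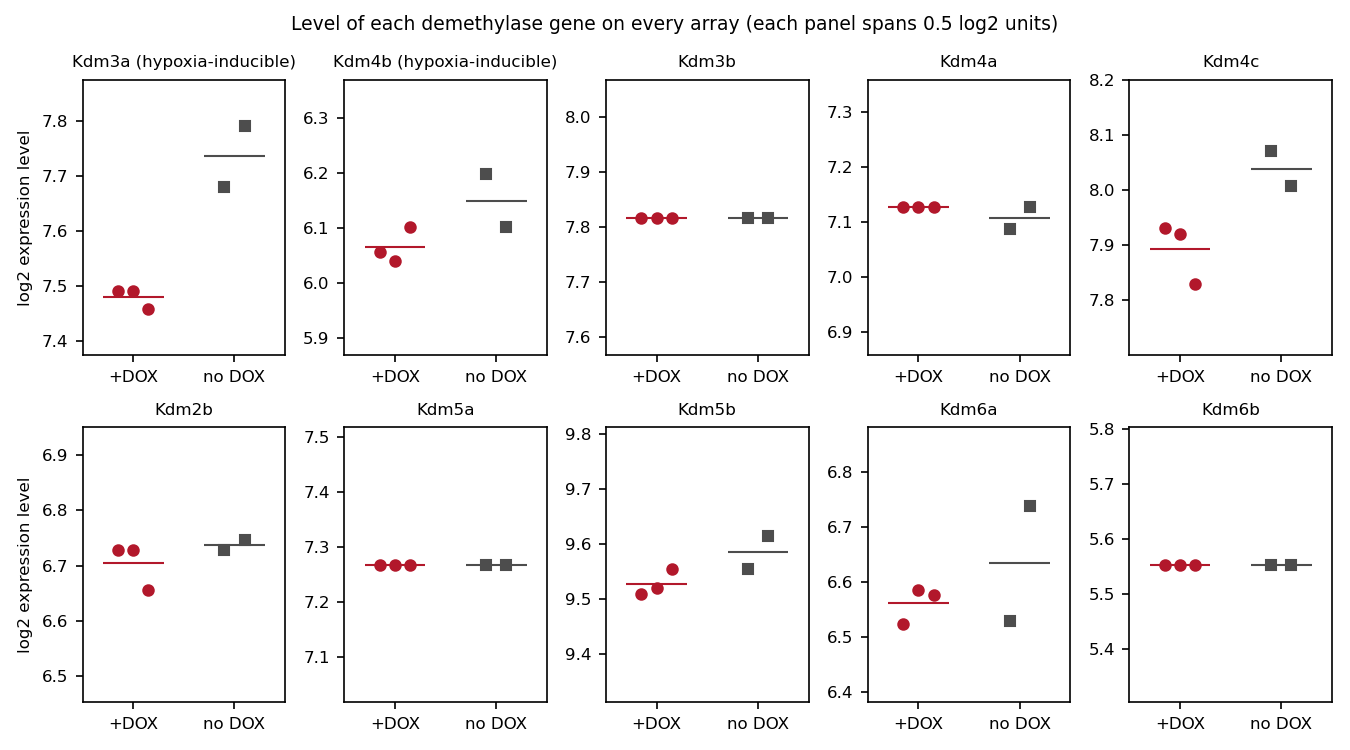
Log2 level of each of the 10 demethylase genes on the 3 +DOX arrays (red circles) and the 2 no DOX arrays (grey squares), with lines at group means and 0.5 log2 units to a panel. Kdm3a and Kdm4c have all +DOX arrays below both no DOX arrays, and Kdm3b, Kdm5a and Kdm6b have 1 value throughout.

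The nearest relatives of the hypoxia-inducible members did not follow one pattern. Kdm3b, the paralog of Kdm3a, was at 7.82 on all 5 arrays. Such an exact tie does not show that the transcript was unchanged. By the untied spread the interval for its difference was -0.13 to 0.13. Kdm5a and Kdm6b had the same interval, because the width for a fully tied gene comes from the spread of other genes. Kdm4a, a paralog of Kdm4b, was at 7.13 on all +DOX arrays, against 7.09 and 7.13 on the no DOX arrays. It was the only one of the 10 members with a higher mean on the +DOX arrays, by 0.020 ± 0.014 (standard error), with an interval from -0.12 to 0.16.

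Kdm4c, which demethylates H3K9 in mouse ES cells and has been tied there to Nanog, was the other member whose groups stood apart. It was at 7.93, 7.92 and 7.83 on the +DOX arrays, against 8.07 and 8.01 on the no DOX arrays. The groups did not overlap, and the gap between them was 0.075, while the +DOX arrays themselves spanned 0.10. Its mean was 7.89 ± 0.06 (SD, n = 3) with DOX and 8.04 ± 0.05 (SD, n = 2) without. The log2 difference of -0.15 ± 0.045 (standard error) did not pass over all genes (adjusted p = 0.770, limma), and its interval by the untied spread ran from -0.31 to 0.014. With the mean of feeder fibroblast markers as a covariate the difference was -0.071. That mean differed by only 0.020 between the groups, at 5.45 with DOX and 5.43 without. It lay near 5.06, the median level over all genes, and a part of feeder cells in the Kdm4c difference was not tested.

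Among the H3K4 demethylases, Kdm5a was at 7.27 on all 5 arrays. Kdm5b, which is linked to ES cell self-renewal, was at 9.51, 9.52 and 9.56 on the +DOX arrays, against 9.56 and 9.62 on the no DOX arrays. The third +DOX array equalled the first no DOX array, so these groups touched as well. The difference was -0.057 ± 0.027 (standard error; adjusted p = 0.770, limma), with an interval from -0.20 to 0.087. It was -0.087 without the first no DOX array, -0.027 without the second and -0.098 with the feeder marker mean as a covariate.

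Of the H3K27 demethylases, Kdm6b, which is induced in macrophages by inflammatory signals, was at 5.55 on all 5 arrays. Kdm6a, its X-linked relative, was at 6.52, 6.59 and 6.58 on the +DOX arrays, against 6.53 and 6.74 on the no DOX arrays. The groups overlapped, and the no DOX arrays lay 0.21 apart. Its difference of -0.071 ± 0.076 (standard error) turned to 0.033 without the second no DOX array. With the feeder marker mean as a covariate the Kdm6a difference was -0.14. Kdm2b was at 6.73, 6.73 and 6.66 on the +DOX arrays, against 6.73 and 6.75 on the no DOX arrays, a difference of -0.034 ± 0.030 (standard error) that was 0.0011 with the feeder marker mean as a covariate.

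**Figure D2:**
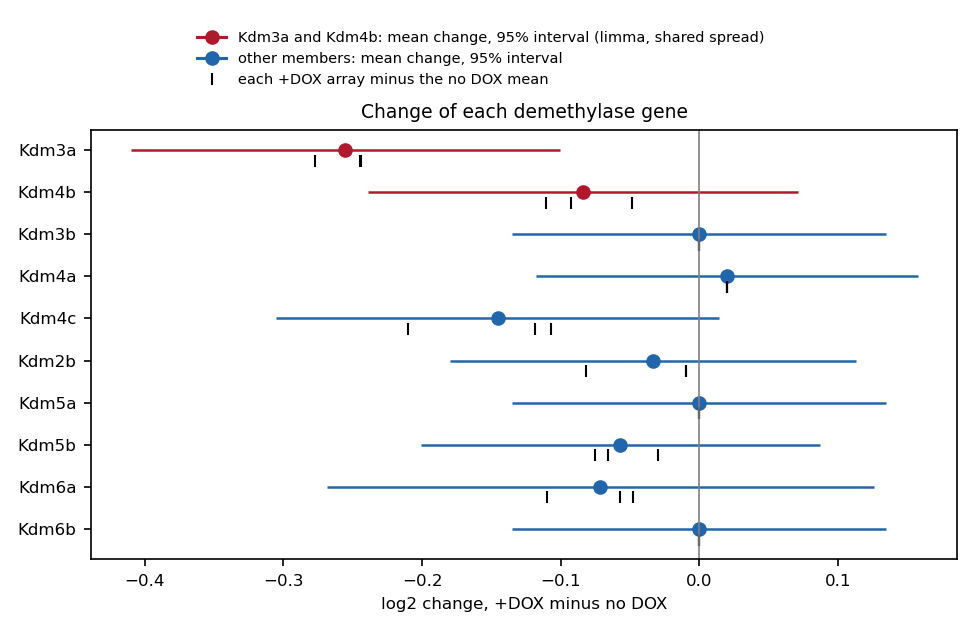
Log2 change of each gene, +DOX minus no DOX, with its 95% interval by limma with the untied spread (Kdm3a and Kdm4b in red, the other 8 in blue), and ticks below for each +DOX array minus the no DOX mean. Only the interval of Kdm3a, -0.41 to -0.10, lies wholly below 0.

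Counted over the family, 6 of the 10 members had a lower mean on the +DOX arrays, 1 had a higher mean and 3 had equal means. Of all 19938 genes, 45.3% had a lower mean, 7901 had a higher mean and 3011 (15.1%) had equal means. No member passed the adjusted threshold in either direction (limma; adjusted p = 0.770 for the 7 members with a difference and 1 for the tied 3), where 0.00502% of all genes passed lower and 0.01% passed higher. At an unadjusted limma p under 0.05 there were 2 lower members, Kdm3a and Kdm4c, and 0 higher, beside 213 lower and 96 higher of all 19938 genes. In the same 2 members, and in 3.08% of all genes, every +DOX array lay below both no DOX arrays. In 0 members, and in 1.65% of all genes, every +DOX array lay above both. The median log2 difference of the 10 members was -0.045, and that of all genes was 0. With 3 arrays against 2, an exact permutation test of 1 gene cannot give a p below 0.1, and none was used.

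Single no DOX arrays decided 2 calls. Without the first no DOX array Kdm3a passed (log2 difference -0.31, adjusted p = 0.022, limma), in a fit that also called 5.5% of all genes lower. Without the second, Kdm3a was at -0.20 (adjusted p = 0.056, limma), and Kdm4a passed as higher at 0.040 (adjusted p = 0.0010, limma) in a fit that called 5.27% of all genes higher. In these fits the lone no DOX array is assumed to vary like the +DOX arrays, and Kdm4a had 1 value on all of those.

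As classes, Kdm3a with Kdm4b had a larger mean difference between the groups than the other 8 members. Their mean level was 6.77, 6.76 and 6.78 on the +DOX arrays, against 6.94 and 6.95 on the no DOX arrays. The mean of the other 8 was 7.31, 7.32 and 7.30 on the +DOX arrays, against 7.33 and 7.36 on the no DOX arrays. In both classes the +DOX arrays lay below both no DOX arrays, by a mean log2 difference of -0.17 for the 2 hypoxia-inducible members and -0.036 for the other 8. For the other 8 the groups lay nearer to each other, at 7.32 and 7.33, than the 2 no DOX arrays did. Of these 8 genes only 1, Kdm4c, had every +DOX array below both no DOX arrays, as did 3.08% of all genes. The difference between these values was -0.13, and it was taken as a description, since 2 genes make up the first class and Kdm3a carries most of its size. In the other 8, Kdm3b, Kdm5a and Kdm6b had 1 value throughout and entered as 0. With only members untied within both groups, the difference was -0.078. Kdm4c, one of the other 8, had a difference of -0.15, larger in size than the -0.084 of Kdm4b. When Kdm4c, Kdm5b and Kdm6b, which have also been described as hypoxia-responsive, were moved into the first class, the class means differed by -0.11 for those 5 and -0.017 for the remaining 5, and the difference was -0.091.

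HIF target genes gave the scale for these values. This list of 20 genes was drawn up when a lower level of hypoxia genes on these +DOX arrays was already known, so its direction is no independent evidence. Its mean was 7.16, 7.09 and 7.09 on the +DOX arrays, against 7.43 and 7.42 on the no DOX arrays. Of the 20 genes, 19 had a lower mean with DOX and Car9 had 1 value throughout, where 45.3% of all genes had a lower mean. None passed over all genes (limma). At an unadjusted limma p under 0.05, 15 were lower and 0 higher, beside 213 lower and 96 higher of all 19938 genes. The median log2 difference was -0.25, and single genes ran from -0.90 to 0. The 2 with the smallest p were Tpi1, a glycolytic enzyme gene, at -0.31 ± 0.025 (standard error; adjusted p = 0.612, limma), and P4ha1, a collagen prolyl hydroxylase gene, at -0.48 ± 0.041 (adjusted p = 0.649, limma). Of the HIF subunit genes, Hif1a was at 8.16, 8.20 and 8.19 on the +DOX arrays, against 7.98 and 8.16 on the no DOX arrays, a log2 difference of 0.12 ± 0.065 (standard error), and Epas1 had -0.042 ± 0.029 (adjusted p = 0.770 for both, limma).

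**Figure D3:**
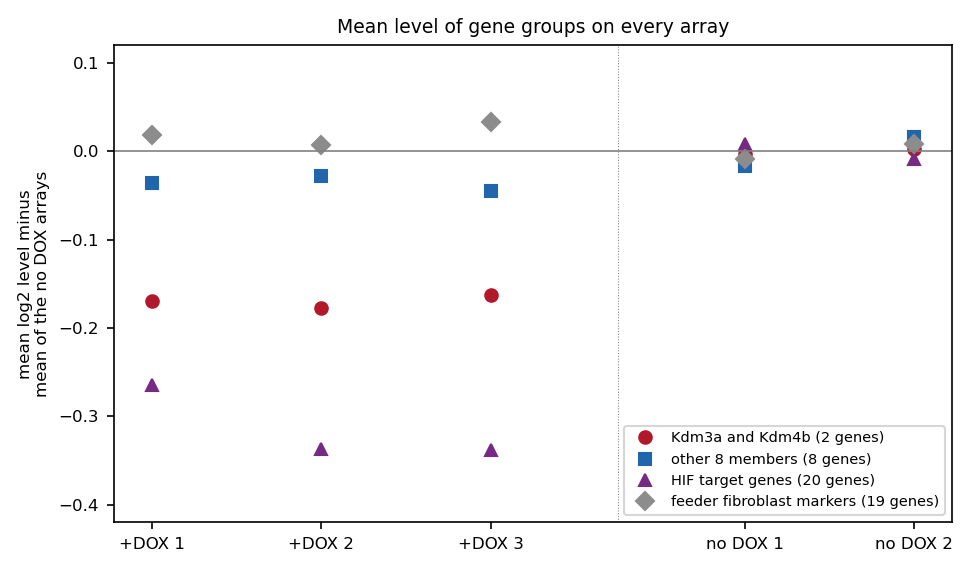
Mean log2 level of 4 gene groups on each array, minus the group's mean over the no DOX arrays. On the +DOX arrays the HIF target genes are lowest, Kdm3a with Kdm4b next, the other 8 demethylases close below 0 and the feeder fibroblast markers above 0.

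The sample labels say that the cells had grown on irradiated feeders, which were reduced by settling, while the series' design text names LIF alone. The mean of 19 measured feeder fibroblast markers, such as Col1a1 and Col3a1, was 5.45, 5.44 and 5.47 on the +DOX arrays, against 5.43 and 5.44 on the no DOX arrays. The second +DOX array lay within the no DOX range and the other 2 lay above it, means with DOX were higher in 12 of the 19 markers and lower in 4, and none passed over all genes (0 also at an unadjusted p under 0.05, limma). With this mean as a covariate, the Kdm3a difference was -0.27 and the Kdm4b difference was -0.085.

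Among 19 further JmjC genes, means with DOX were lower in 10 and higher in 8, none passed the test and 0 reached an unadjusted p under 0.05 (limma). Their log2 differences ran from -0.17 to 0.13 with a median of -0.021. Those with the smallest p were Kdm2a, the paralog of Kdm2b, at -0.021 ± 0.011 (standard error), and Jmjd6 at -0.021 ± 0.013. Jmjd1c, a further KDM3 relative, was at 8.52, 8.51 and 8.52 on the +DOX arrays, against 8.52 and 8.63 on the no DOX arrays. Hif1an, the JmjC asparaginyl hydroxylase that restrains HIF, was at 6.37, 6.33 and 6.33 with DOX, against 6.30 and 6.33 without. Kdm5c and Uty, the X-linked KDM5 and Y-linked KDM6 relatives, had differences of -0.050 and -0.15, and Uty varied between 5.84 and 6.05 on the +DOX arrays alone.

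Kdm1a and Kdm1b, the FAD-dependent demethylases, had log2 differences of 0.025 ± 0.026 and -0.020 ± 0.013 (standard errors). Of 5 measured H3K9 methyltransferase genes, means with DOX were higher in 4 and lower in 1, and the largest difference was the 0.013 of Ehmt2. Of 6 H3K4 methyltransferase genes, 5 had 1 value on all arrays and Kmt2b had 0.032. Ezh2, the H3K27 methyltransferase of Polycomb complex PRC2, was at 8.86, 8.82 and 8.84 on the +DOX arrays, against 8.92 and 8.88 on the no DOX arrays, and did not pass (log2 difference -0.060 ± 0.022, standard error, adjusted p = 0.770, limma). Of 4 H3K36 methyltransferase genes, 3 had a lower mean, with the lowest at -0.043 in Setd2. None of these genes passed over all genes (0 at an unadjusted p under 0.05, limma).

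**Figure D4:**
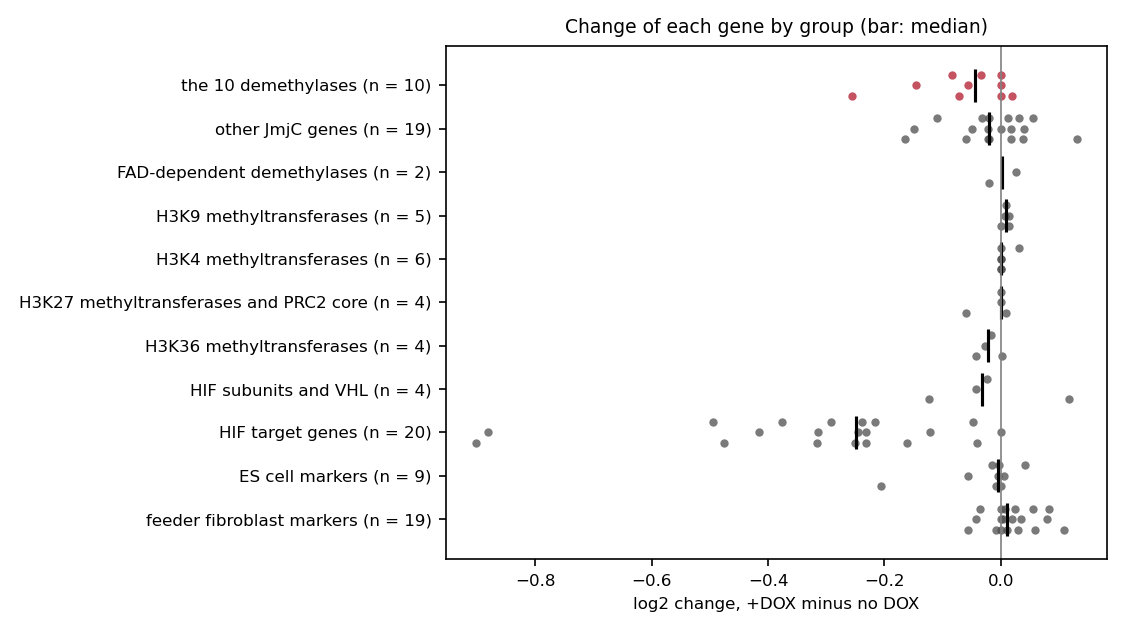
Log2 change, +DOX minus no DOX, of every measured gene by group, with a bar at each group's median. The 10 demethylases (red) spread from -0.26 to 0.02, HIF target genes from -0.90 to 0, and the methyltransferase groups lie within 0.06 of 0.

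Of the genes reported as Kdm3a or Kdm4c targets in mouse ES cells, 3 were measured. Zfp57, an imprint-protecting zinc finger gene linked to Kdm3a, was at 9.93, 9.93 and 9.94 on the +DOX arrays, against 10.07 and 10.16 on the no DOX arrays. Its groups did not overlap, but the log2 difference of -0.18 ± 0.032 (standard error) did not pass (adjusted p = 0.770, limma). Tcl1, the AKT coactivator gene also linked to Kdm3a, was at 4.88, 5.04 and 4.95 with DOX, against 4.95 and 5.06 without, so its groups overlapped. Nanog, linked to Kdm4c, had a difference of -0.056 ± 0.036 (standard error), and its groups overlapped too.

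Across all genes, the values nearest in pattern to those of Kdm3a, by root mean square distance between values centred on each gene's mean over the 5 arrays, were those of Myrf (0.014 log2 units), Sod2 (0.023) and Ly6e (0.027). The mitochondrial superoxide dismutase gene Sod2 was at 8.63, 8.59 and 8.62 on the +DOX arrays, against 8.83 and 8.91 on the no DOX arrays. Nearest to Kdm4b were Insl5 (0.0095), Ube2b (0.013) and Uchl5 (0.014), whose differences lay between -0.091 and -0.074. With 5 arrays these distances are a description only.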

How the data were processed

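Total RNA was biotin-labelled and measured on 5 microarrays, 1 per sample. Values for 35557 probe sets are on a log2 scale as deposited, made by the authors with RMA (version not given), per the submitters' processing notes. The log2 scale was read from the values, and no per-sample depth applies to arrays. Probe sets were named through the platform's annotation: 21789 had 1 symbol, 1621 had several and 12147 were unlisted. Where a gene had several, the one highest on average across arrays was kept, giving 19938 genes, with no filter on low values.

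Groups came from the sample titles. All genes were fitted with limma 3.58.1 (lmFit, eBayes without trend) in R 4.3.3, +DOX minus no DOX, with Benjamini-Hochberg adjustment over all genes at 0.05. The untied spread took limma's prior (SD 0.086, 2.87 degrees of freedom) from genes with 5 distinct values. The fit was tested on simulated data with normal noise of SD 0.086 and no ties. That test therefore does not show how the fit behaves on tied values such as those here. The named genes are the 10 members, Satb1, per list up to 2 genes with the smallest p and relatives of members, and 3 nearest patterns for Kdm3a and Kdm4b. Car9, Setd2, Ezh2, Nanog, Pou5f1, Sox2, Zfp42 and the fibroblast genes came from the lists and were named after their values were seen. The members and lists were chosen with earlier results of these data known. Suv39h1, Ash1l, Tcfcp2l1 and Fbn1 had no probe set under a single symbol and were not analysed here. Alternatives covered the spread, the genes tested, probe set summary, normalization, pairing, a feeder covariate and each array left out.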

Additional observations from a re-analysis of the deposited data

How the results depend on the processing

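The number of arrays limits every value, and ties limit what 3 of the 10 members can show. Satb1 kept its direction in every alternative run and newly passed in 4 of them: at 3.55 with the untied spread and with only untied genes tested, and without the first or the second no DOX array (adjusted p = 0.0042 and 0.0034, limma). Leaving out single arrays gave 3.35 to 3.75. With single arrays left out, members called lower numbered 0 to 1, members called higher 0 to 1, and members with every remaining +DOX array below every remaining no DOX array 2 to 5, against 0, 0 and 2 with all arrays: Kdm3a was the lower call without the first no DOX array and Kdm4a the higher call without the second, and 5 and 4 members lay wholly below without the first no DOX and the third +DOX array, as did 18.2% and 5.17% of all genes. Kdm3a kept a lower mean in all 14 alternatives, from -0.31 to -0.20, as did Kdm4c, from -0.18 to -0.071, and Kdm4b, from -0.13 to -0.035. Several of these alternatives could not move the difference of a gene. Satb1 and the members had 1 probe set each, so changing the spread, the genes tested or the probe set summary left their differences as they were. The replicate block gave the same differences as leaving out the third +DOX array. Reversed values were Kdm2b, at 0.0011 with the feeder covariate, and Kdm6a, between -0.18 and 0.033 when single arrays were left out. The class difference of -0.13 was -0.078 with untied members only (fewer genes), -0.091 with the wider class and -0.15 with medians; the cause of the others was not tested. Same-numbered arrays were not shown to be paired (correlations of deviations -0.0063 and 0.0063). The deviations of the 2 no DOX arrays mirror each other, so these correlations are not independent and cannot decide whether arrays were paired. With the number as a replicate block, no member passed, Satb1 was at 3.56, Kdm3a at -0.24 and the class difference at -0.14.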
